A study of Mus musculus with 6 samples.

Results

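Mitosis and kinetochore genes were followed in tissue labelled dorsal cortex from mouse embryos at E11.5. They were 46 listed members of the machinery that carries a cell from mitotic entry to cytokinesis. The members were given by name, and each was matched to the gene symbols of the deposited series table and represented by its brightest probe over the 6 arrays. All 46 had a probe and were tested, among 21064 genes and unnamed probes in the series, 17088 of them named genes. The matching rule itself uses no difference between the groups, but the list was chosen with earlier results of these data known. The study measured total RNA of single embryos on Agilent 1-colour (Cy3) arrays, for 3 embryos whose genotype is given as control and 3 given as mutant, with no treatment in the labels. Every litter gave a control and a mutant embryo, which carry the same number below: control 1 was a litter mate of mutant 1, and so on for litters 2 and 3. The series is titled for Wnt/b-catenin signalling in murine cortical precursors, but its sample labels leave out which gene is mutated, the allele and any driver line, so the genotype was not checked here on a targeted gene. The mouse strain and the sex of the embryos are not given in the sources used here.

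At this age most cells of the dorsal forebrain are neuroepithelial cells and radial glia, which divide at the ventricular surface, and the first neurons and basal progenitors are forming. In a dividing cell, cyclins activate Cdk1 to start mitosis, kinetochores built on the centromeres attach chromosomes to spindle microtubules, and the spindle checkpoint holds back the anaphase-promoting complex (APC/C) until every chromosome is attached. Kinesins and spindle proteins then separate the chromosomes and set up cytokinesis. Transcripts of these genes build up in G2 and M phase, and their levels in a tissue are commonly read as a sign of how many cells are cycling.

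Between 68.68% and 70.1% of the spots were well above background on the control arrays and between 65.75% and 67.9% on the mutant arrays, so every mutant array lay below every control array, and no spot was saturated. The 75th percentile of the processed signal lay between 1446.2 and 1833.2 on the control arrays and between 1206.9 and 1380.2 on the mutant arrays, and each array was scaled by it. Levels below are log2 signals relative to that percentile, differences are mutant minus control on the log2 scale, and SE is the standard error of a difference. A difference of 0.1 is a 1.07-fold change, and a difference of 0.5 a 1.41-fold change. Precision is limited by having 3 arrays per group. All 46 members were well above background on all 6 arrays, as were the cortical markers Pax6, Eomes and Tbr1.

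The mitotic transcripts differed little between mutant and control embryos. None of the 46 members passed the test (limma with Benjamini-Hochberg adjustment over all rows, threshold 0.05), where 0.0332% of all rows tested did (7 rows), and the members' adjusted p ranged from 0.256 to 0.985. At an unadjusted p under 0.05 there were 3 members (Spc25, Kif15 and Kif20a) of 46, against 16.9% of all rows. Of these, Kif15 and Kif20a were on the lower side, where 7.44% of all rows lay, and Spc25 was on the higher side, where 9.5% did. The sign of the difference was negative for 35 members and positive for 11, against 45.0% negative over all rows. With arrays centred on their median instead of the 75th percentile, which moved all rows down alike, 44 of the 46 were negative, against 61.3% of all rows.

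The median difference of the members was -0.038, against 0.024 over all rows, and single members ranged from -0.26 for Ttk to 0.33 for Spc25. The median size of a difference, taken without its sign, was 0.045 for the members, 0.143 over all rows and 0.134 over the 19307 rows that were well above background on all arrays. Differences were smaller than 0.1 for 33 members (71.7%), against 37.4% of all rows. By control mean, all members but Plk4, Aurkb, Cenpf, Kif18a and Ttk lay above the 75th percentile of the array. The members were not compared with rows of the same brightness. The groups did not overlap, with every mutant below every control, for 10 members (Plk4, Bub1, Bub1b, Bub3, Cenph, Kif15, Kif20a, Kif23, Ttk and Spc24), against 11.9% of all rows. Every mutant lay above every control for 1 member, Spc25, against 13.0% of all rows. The 95% interval of the difference lay within 0.5 of 0 for 43 members, the others being Ttk, Spc25 and Aurkb, and within 1 (2-fold) of 0 for 45. In a bulk sample of tissue, fewer dividing cells and less RNA per dividing cell cannot be told apart.

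**Figure D1:**
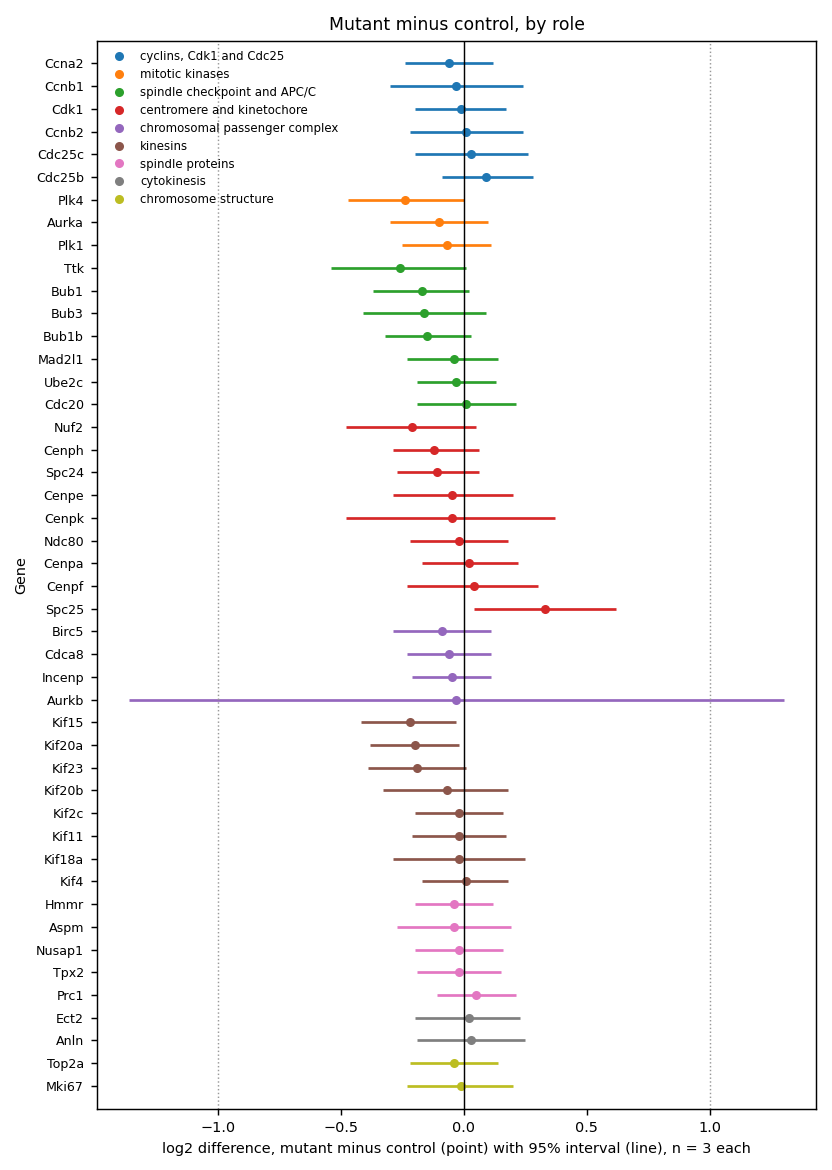
Log2 difference between mutant and control embryos for each of the 46 genes (n = 3 embryos in each group), ordered and coloured by role. Points are differences and lines are 95% intervals, and the dotted lines stand at a log2 difference of -1 and 1. Most points lie within 0.1 of 0, Spc25 lies farthest to the right at 0.33, and the interval of Aurkb is the widest.

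Many of these genes are switched on together in late cell cycle by 2 promoter elements that have been described for them, the cell cycle genes homology region (CHR), bound by the MuvB complexes, and the CCAAT box, bound by NF-Y. The sequences around the start of transcription were searched for TTTGAA or TTCGAA (CHR) and for CCAAT, on both strands, in windows of 300 bases (250 before the start and 50 after it) from RefSeq, build GRCm38.p6. A CHR and a CCAAT match can share at most 1 base. Windows were found for 39 of the 46 members, 44 windows in all. A CHR match lay in 32 of the 44 windows (72.7%), against 19.2% of all 32851 windows of that length, and a CCAAT match in 33 of the 44, against 37.4%. Both lay in 27 windows (61.4%, against 7.52%), 2 or more CCAAT matches in 22 of the 44 (against 11.7%), and neither in 6 (13.6%, against 50.9%). A match is a description of the letters and not a binding site, and several members have more than 1 window.

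**Figure D2:**
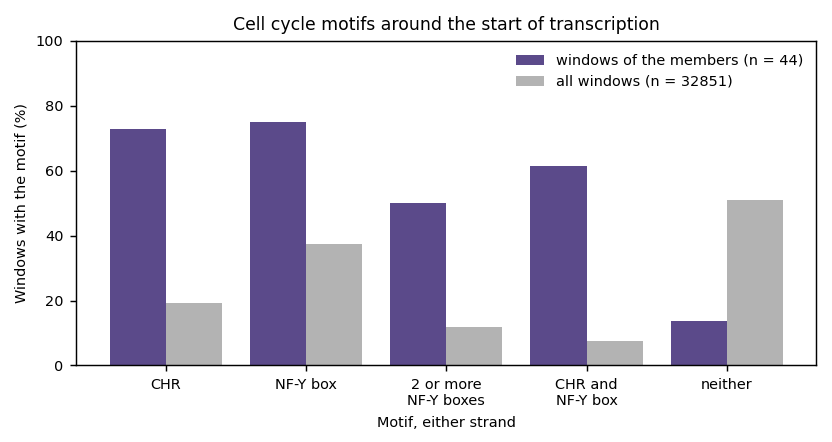
Percentage of promoter windows holding each motif on either strand, for the 44 windows of the mitosis and kinetochore genes and for all 32851 windows. CHR stands for TTTGAA or TTCGAA and NF-Y box for CCAAT. The members' bars are higher for every motif and combination, up to 61.4% against 7.52% for windows with both, and lower for neither.

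Stretches of 180 bases (150 before the start of transcription and 30 after it) are shown as examples. They are from 4 members with large differences, Spc25, Kif15, Plk4 and Ttk, and from 3 whose differences were near 0, Cdk1, Cdc20 and Ube2c. Other members lay as near 0, such as Ccnb2 (0.01), Kif4 (0.01) and Mki67 (-0.01). So few chosen stretches cannot show whether promoter sequence goes with the difference. They are given 5′ to 3′ on the strand of the gene, from RefSeq (GRCm38.p6), with CHR and CCAAT matches in capitals (TTCAAA and ATTGG are matches on the opposite strand). Spc25 lies at chr2:69206184-69206363 (minus strand), Kif15 at chr9:122950931-122951110 (plus), Plk4 at chr3:40799801-40799980 (plus), Ttk at chr9:83834539-83834718 (plus), Cdk1 at chr10:69352883-69353062 (minus), Cdc20 at chr4:118437314-118437493 (minus) and Ube2c at chr2:164769779-164769958 (plus).
Spc25: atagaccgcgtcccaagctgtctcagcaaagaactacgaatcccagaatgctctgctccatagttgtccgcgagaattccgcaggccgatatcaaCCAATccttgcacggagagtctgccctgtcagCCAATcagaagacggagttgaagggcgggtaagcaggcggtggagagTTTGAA
Kif15: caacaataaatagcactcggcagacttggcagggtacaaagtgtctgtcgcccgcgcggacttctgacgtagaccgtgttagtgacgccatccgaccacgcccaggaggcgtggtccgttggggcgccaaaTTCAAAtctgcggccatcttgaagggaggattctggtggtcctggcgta
Plk4: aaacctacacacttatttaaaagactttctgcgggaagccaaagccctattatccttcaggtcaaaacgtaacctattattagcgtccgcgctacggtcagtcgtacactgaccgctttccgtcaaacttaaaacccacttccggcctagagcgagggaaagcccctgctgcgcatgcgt
Ttk: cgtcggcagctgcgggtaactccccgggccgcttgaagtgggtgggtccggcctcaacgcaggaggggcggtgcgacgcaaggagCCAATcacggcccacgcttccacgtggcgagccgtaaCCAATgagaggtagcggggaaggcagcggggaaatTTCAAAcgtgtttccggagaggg
Cdk1: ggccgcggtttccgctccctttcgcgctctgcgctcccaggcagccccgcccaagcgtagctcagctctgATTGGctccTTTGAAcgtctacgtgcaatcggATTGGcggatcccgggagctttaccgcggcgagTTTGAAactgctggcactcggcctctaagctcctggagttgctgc
Cdc20: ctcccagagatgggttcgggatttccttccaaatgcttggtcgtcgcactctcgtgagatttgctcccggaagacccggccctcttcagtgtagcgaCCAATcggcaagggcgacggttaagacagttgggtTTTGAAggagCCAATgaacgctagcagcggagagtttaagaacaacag
Ube2c: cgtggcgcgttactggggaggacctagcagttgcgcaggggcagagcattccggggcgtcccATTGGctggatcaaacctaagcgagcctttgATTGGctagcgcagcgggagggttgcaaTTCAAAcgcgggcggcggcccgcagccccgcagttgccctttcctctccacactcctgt

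Counting the first transcribed base as 1, the CHR match of Cdc20 began at -18, that of Ube2c at -29 and those of Cdk1 at -71 and -15, each beside 2 CCAAT matches upstream of the start. Ttk and Spc25 also held 2 CCAAT matches and had their CHR match after the start, at 8 and 25. Kif15 held a CHR match at -19 and no CCAAT match, and Plk4 held neither within this stretch. The median difference was -0.022 for the 29 members with a CHR match in their window and -0.05 for the 10 members with a window but no match. It was -0.033 for the 28 members with a CCAAT match and -0.044 for the 11 without. Members with a CHR match ranged from -0.26 to 0.33 and the fewer members without one from -0.24 to -0.02.

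The regulators of mitotic entry were nearly level between the groups. Of the 6 cyclins, Cdk1 and Cdc25 phosphatases, 3 differences were negative and 3 positive, with a median of -0.002 and a range from -0.06 (Ccna2, cyclin A2) to 0.09 (Cdc25b). Ccnb1 encodes cyclin B1, the partner of Cdk1, and its levels were 4.04, 4.08 and 4.20 in the controls, in the order of their litters, against 4.09, 3.90 and 4.25 in the mutants in the same order. The groups overlapped, with the lowest and the highest value both in a mutant (difference -0.03, SE 0.11, limma, adjusted p = 0.914). Cdk1, the kinase that drives mitotic entry, was at 1.77, 1.85 and 1.88 in controls and at 1.74, 1.88 and 1.85 in mutants (difference -0.01, SE 0.08). Cdc25b, a phosphatase that activates Cdk1, was at 2.14, 2.10 and 2.12 in controls and at 2.14, 2.19 and 2.31 in mutants. Mutant 3 was the highest, and mutant 1 lay at the level of control 1 (difference 0.09, SE 0.07, adjusted p = 0.557). Ccnb2 differed by 0.01 and Cdc25c by 0.03.

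The 3 genes grouped as mitotic kinases all had negative differences (median -0.10). This group leaves out the checkpoint kinases, and Cdk1 (-0.01) and Aurkb (-0.03), which were placed in other roles. Plk4, the kinase that sets centriole number, was at -1.74, -1.77 and -1.82 in controls and at -2.02, -1.85 and -2.16 in mutants. All 3 mutants lay below all 3 controls, mutant 2 only just (difference -0.24, SE 0.10, limma, adjusted p = 0.297). Its probe lies at chr3:40615898-40616037 in mm9, and the log2 ratio of Plk4 in the authors' deposited table was -0.273 with an fdr of 0.131. Aurka, the kinase of centrosome maturation and spindle poles, was at 3.86, 4.04 and 4.08 in controls and at 3.89, 3.89 and 3.90 in mutants. Control 1 was the lowest of all embryos, so the groups overlapped (difference -0.10, SE 0.08, adjusted p = 0.554). Plk1, which acts from mitotic entry to cytokinesis, was at 4.94, 4.94 and 5.01 in controls and at 4.82, 4.92 and 4.96 in mutants, again with overlap (difference -0.07, SE 0.07, adjusted p = 0.666).

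The spindle checkpoint and APC/C group had the most negative median of the roles, -0.146 over 7 genes, with 6 negative differences and 4 genes whose groups did not overlap on the lower side (11.9% of all rows did so), while 0 passed the test and 0 had an unadjusted p under 0.05 in limma. Ttk, the Mps1 kinase that starts checkpoint signalling at unattached kinetochores, was at -1.11, -1.04 and -1.10 in controls and at -1.57, -1.27 and -1.20 in mutants. All mutants were lower and mutant 1 the most so (difference -0.26, SE 0.11, 95% interval -0.54 to 0.01, adjusted p = 0.311). Bub1, a kinase that recruits checkpoint proteins, was at 1.76, 1.66 and 1.81 in controls and at 1.56, 1.49 and 1.65 in mutants. Here mutant 3 came within 0.01 of control 2 without reaching it (difference -0.17, SE 0.08, adjusted p = 0.341).

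Bub1b, which encodes the BubR1 subunit of the mitotic checkpoint complex, was at 2.04, 2.06 and 2.13 in controls and at 1.87, 1.95 and 1.98 in mutants, without overlap (difference -0.15, SE 0.07, adjusted p = 0.359). Bub3, the partner of Bub1 and BubR1, was at 3.35, 3.33 and 3.38 in controls and at 3.0, 3.28 and 3.31 in mutants. Its difference of -0.16 (SE 0.10, adjusted p = 0.473) came mostly from mutant 1, since the litter differences were -0.35, -0.05 and -0.07. The remaining genes of the spindle checkpoint and APC/C group stood nearer 0. Cdc20, the APC/C activator that the checkpoint restrains, was at 4.75, 4.82 and 4.93 in controls and at 4.77, 4.83 and 4.91 in mutants (difference 0.01, SE 0.08, adjusted p = 0.969). The differences were -0.04 for Mad2l1 (Mad2, the inhibitor of Cdc20) and -0.03 for Ube2c, a ubiquitin-conjugating enzyme of the APC/C.

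Among the 9 centromere and kinetochore genes the median difference was -0.046, with 6 negative and 3 positive. The 4 subunits of the Ndc80 complex, which holds the microtubule at the kinetochore, did not differ alike. Spc25 had the largest difference of all members: it was at 4.63, 4.86 and 4.47 in controls and at 5.07, 4.96 and 4.92 in mutants. All 3 mutants lay above all 3 controls, with control 2 just under mutant 3 (difference 0.33, SE 0.12, limma, adjusted p = 0.256). The litter differences were 0.44, 0.10 and 0.46, and the probe lies at chr2:69031953-69032012 in mm9. The authors' deposited table gives Spc25 a log2 ratio of 0.338 and an fdr of 0.113.

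Spc24, which pairs with Spc25 in the complex, was at 1.41, 1.44 and 1.48 in controls and at 1.29, 1.40 and 1.32 in mutants. Its groups did not overlap, and its sign was opposite to that of Spc25 (difference -0.11, SE 0.07, adjusted p = 0.462). Nuf2, a subunit of the microtubule-binding end, was at 0.97, 0.88 and 0.98 in controls and at 0.69, 0.57 and 0.92 in mutants. Mutant 3 lay within the control range and the other mutants below it (difference -0.21, SE 0.11, adjusted p = 0.374). The remaining subunit, Ndc80 itself, differed by -0.02 (SE 0.08). No test of the difference between subunits was made.

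Cenph, of the inner kinetochore network that sits on the centromere, was at 1.62, 1.58 and 1.69 in controls and at 1.55, 1.46 and 1.54 in mutants, without overlap (difference -0.12, SE 0.07, adjusted p = 0.447). Cenpk, of the same network, followed the litters: it was at 2.11, 1.66 and 1.83 in controls and at 2.08, 1.60 and 1.76 in mutants. Litter 1 was the highest in both groups and litter 2 the lowest, and within litters the mutant differed by only -0.03, -0.06 and -0.07. The centromeric histone Cenpa (0.02), the kinetochore kinesin Cenpe (-0.05) and Cenpf (0.04) were close to 0.

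The chromosomal passenger complex corrects faulty attachments and later moves to the central spindle. All 4 of its genes had negative differences, between -0.09 and -0.03, and 0 had groups apart. Birc5, which encodes survivin, was at 5.07, 5.12 and 5.17 in controls and at 5.13, 4.92 and 5.04 in mutants. Mutant 1 lay inside the control range and the other mutants below it (difference -0.09, SE 0.08, adjusted p = 0.603). Cdca8 (borealin) differed by -0.06 and Incenp, the scaffold of the complex, by -0.05. The kinase of the complex, Aurkb, was the least certain member: it was at -4.99, -3.87 and -3.85 in controls and at -5.30, -3.60 and -3.90 in mutants. The pair of litter 1 lay more than 1 below the other pairs in both groups, and the difference of -0.03 had an interval from -1.36 to 1.30. Aurkb was also the dimmest member. A dim probe of Cdk1 was likewise lowest in litter 1 in both groups (-4.31 in control 1 and -4.80 in mutant 1). Another dim Cdk1 probe was not (-4.15 and -4.02). Whether the litter pattern of Aurkb reflects its RNA level was not tested. Litter 1 was also hybridised on a slide of its own, so litter and slide cannot be told apart there.

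**Figure D3:**
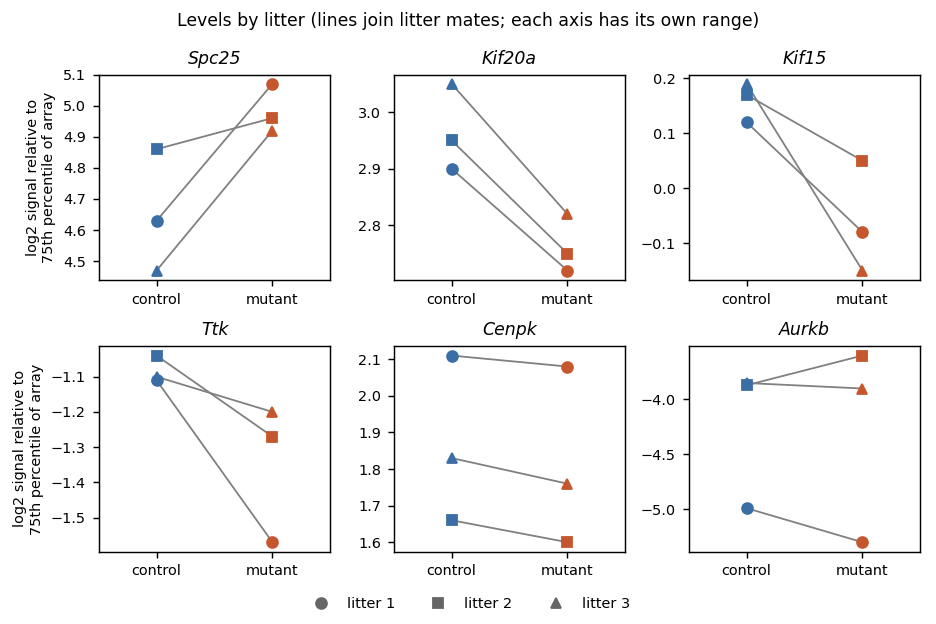
Log2 levels of 6 genes relative to the 75th percentile of the array, by group, with lines joining litter mates and symbols giving the litter. Each panel has its own axis range. Spc25 was higher and Kif20a, Kif15 and Ttk were lower in the mutant of each litter without a call in the test. The values of Cenpk and of Aurkb, the dimmest member, followed the litter rather than the group.

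The 8 kinesins held the 2 members on the lower side at an unadjusted p under 0.05, and 7 of the 8 differences were negative (median -0.048). Kif20a, which carries the passenger complex to the central spindle, was at 2.90, 2.95 and 3.05 in controls and at 2.72, 2.75 and 2.82 in mutants. The groups were apart, and the litter differences of -0.18, -0.20 and -0.22 were close to each other (difference -0.20, SE 0.07, limma, adjusted p = 0.265). Kif15, which works beside Kif11 to keep the spindle poles apart, was at 0.12, 0.17 and 0.19 in controls and at -0.08, 0.05 and -0.15 in mutants. It too was lower in every mutant (difference -0.22, SE 0.08, adjusted p = 0.256), and its probe lies at chr9:122927298-122927357 in mm9.

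Kif23, the motor of the centralspindlin complex in cytokinesis, was at 0.83, 0.90 and 0.92 in controls and at 0.58, 0.74 and 0.77 in mutants, without overlap (difference -0.19, SE 0.08, adjusted p = 0.322). A second, dim probe of Kif23 differed by only -0.01. The other 5 kinesins lay closer to 0: Kif20b at -0.07, the depolymerase Kif2c, the bipolar spindle motor Kif11 and the chromosome-aligning Kif18a at -0.02 each, and the chromokinesin Kif4 at 0.01.

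The remaining roles showed differences of at most 0.05 in size. Prc1, which bundles microtubules in the central spindle, was at 4.10, 4.04 and 4.14 in controls and at 4.11, 4.14 and 4.16 in mutants (difference 0.05, SE 0.07, limma, adjusted p = 0.75). It was the only member besides Spc25 that was higher in the mutant of each of the 3 litters, although its groups overlapped. The other spindle proteins were Aspm, a spindle pole protein whose loss causes microcephaly (-0.04), Hmmr (-0.04), Nusap1 (-0.02) and Tpx2, an activator of Aurka (-0.02). In cytokinesis, Ect2, the exchange factor that activates RhoA, was at 2.27, 2.15 and 2.27 in controls and at 2.13, 2.24 and 2.36 in mutants. Mutant 1 was the lowest and mutant 3 the highest of all embryos (difference 0.02, SE 0.09, adjusted p = 0.943), and Anln (anillin) differed by 0.03. Mki67, the antigen used to stain cycling cells, was at 4.96, 5.08 and 5.15 in controls and at 4.96, 5.05 and 5.15 in mutants, so that its values matched within each litter to within 0.03 (difference -0.01, SE 0.09, adjusted p = 0.958). Top2a, which untangles sister chromatids, differed by -0.04.

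**Figure D4:**
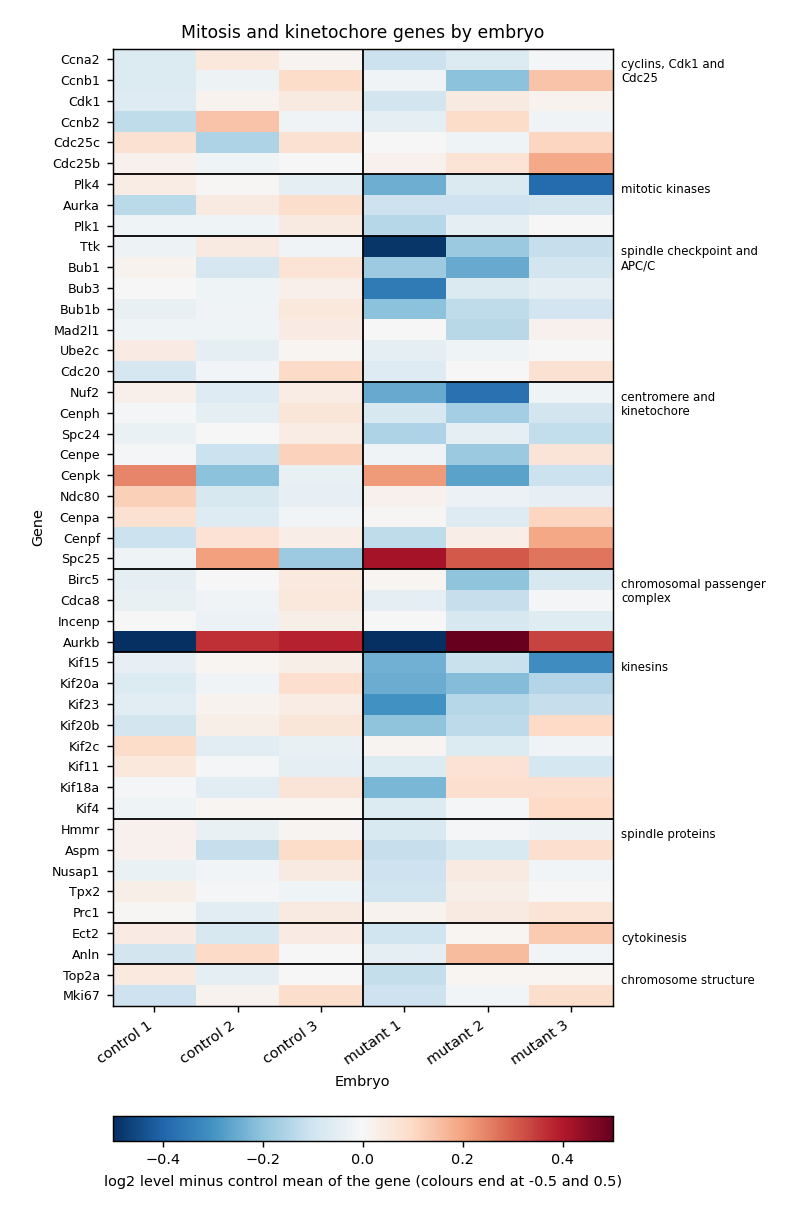
Log2 level of each gene in each embryo minus the mean of the 3 controls for that gene, grouped by role. Colours end at -0.5 and 0.5, so the values of Aurkb beyond that range (down to -1.06 in mutant 1) are drawn at the end colour. Most cells are pale, the checkpoint genes Ttk, Bub1 and Bub1b and some kinesins are blue in the mutants, and Spc25 is red in all 3.

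By embryo, the median of the 46 members from their control means was -0.019, -0.019 and 0.035 for the controls of litters 1 to 3 and -0.097, -0.05 and -0.01 for their mutant litter mates. Mutant 3 thus lay within the control range, and mutants 1 and 2 lay below it. Within litters the median difference was -0.082 in litter 1 (36 of 46 negative), -0.034 in litter 2 (27 negative) and -0.026 in litter 3 (32 negative). Litter 1 lay on slide 1 and the other litters on slide 2, where the median difference was -0.021 with 25 negative. The median over all rows was 0.011, 0.011 and 0.036 within litters 1 to 3. Differences were negative in all 3 litters for 17 members and positive in all 3 for 2. The 17 include Mki67, whose litter differences reached only -0.03. The shares of all rows with these signs by litter were not counted, so the counts cannot be read as particular to the members. Without control 3, 0 members had an unadjusted p under 0.05 in limma, where 1912 of the 21064 rows did. Without mutant 1 it was again 0 members, but 4513 rows. Without control 2 it was 1 member (Spc25) and 2629 rows. Leaving out any of the other embryos left between 2 and 4 members and between 2741 and 3118 rows. With all embryos 3568 rows were under 0.05.

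The members also varied little among embryos of a group. The SD within groups had a median of 0.078 over the members, against 0.135 over rows well above background on all arrays, and ran from 0.035 (Hmmr) through 0.236 (Cenpk) to 0.79 (Aurkb). Here too, the rows compared were not matched to the members for brightness. Over the 6 embryos the members' levels correlated in pairs with a median Pearson r of 0.282, and 70.4% of the 1035 pairs were positive. These values share array, scaling and litter, and describe 6 points each. Of the 14 members with several probes (32 probes), the probes of 12 had a single sign. The exceptions were Cdk1, with a dim probe at 0.03, and Ect2, with a dim second probe at -0.23.

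Genes outside the members whose 6 levels followed the members' median profile most closely, by Pearson r over the 6 embryos among 17042 named genes, were Gm550 (0.991), Hypk (0.989), Vps4b (0.986), Poglut1 (0.986), Gle1 (0.983), Zdhhc16 (0.982), Unc119b (0.982) and Scd2 (0.981). With 6 embryos and so many genes these are only the highest of many values.

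Other genes of mitosis likewise differed little between the groups. Of 116 listed genes, 115 were tested (Kif14 was not), 0 passed, and the median difference was -0.039 with 72 negative. In limma 6 of the 115 had an unadjusted p under 0.05 on the lower side (7.44% of all rows) and 0 on the higher side (9.5%). Groups were apart for 18 on the lower side (11.9% of all rows) and for 2 on the higher (13.0%). Among the other 31 centromere and kinetochore genes (median -0.076, 23 negative) is Oip5, which takes part in loading Cenpa onto centromeres. Oip5 was at -0.16, -0.22 and -0.14 in controls and at -0.40, -0.46 and -0.44 in mutants. All mutants were lower, by an amount above the spread within each group (difference -0.26, SE 0.06), but the adjusted p was 0.188. Cenpp (-0.21) and Ska3, which holds kinetochores to depolymerising microtubules (-0.31), followed with adjusted p of 0.211 and 0.227.

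Of the 12 drivers of mitotic transcription (median -0.028, 7 negative), Mybl2, the B-Myb subunit that turns MuvB into an activator, was at 3.52, 3.60 and 3.62 in controls and at 3.38, 3.18 and 3.15 in mutants. All mutants lay below all controls (difference -0.34, SE 0.09, limma, adjusted p = 0.191). Tfdp1, the E2f partner, differed by -0.23 (adjusted p = 0.28), and the MuvB subunit Lin52 by 0.16 (adjusted p = 0.467), while Foxm1, the forkhead activator of G2 and M genes, differed by -0.09 (SE 0.10). Foxm1 was named after its values were seen. Wee1, the kinase that restrains Cdk1, was the only gene of the 24 of mitotic entry and exit at an unadjusted p under 0.05 (-0.23, SE 0.07, adjusted p = 0.221). The medians were -0.037 for condensin and cohesin (18 genes), 0.008 for spindle and cytokinesis (20 genes) and 0.018 for centriole duplication (10 genes), with 0 genes at an unadjusted p under 0.05 in these 3 lists.

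The median of the S phase genes stood farther from 0 than that of the mitotic genes. Of 23 S phase genes 22 had negative differences (median -0.133), 4 of them at an unadjusted p under 0.05 (7.44% of all rows on that side) and 10 with every mutant below every control (11.9% of all rows), but 0 passed. The replicative helicase subunits Mcm7 and Mcm5 each differed by -0.22 (SE 0.07 each, adjusted p = 0.218 and 0.23), and Ung, a uracil DNA glycosylase, by -0.73 (SE 0.21, adjusted p = 0.211). By embryo the S phase median was -0.102, -0.162 and -0.104 in mutants 1 to 3, outside the control range of -0.017 to 0.013. Of the 20 tested G1 cyclins, E2f factors and inhibitors (Ccne2 was not tested) 12 were negative and 8 positive (median -0.041), and 0 passed. Ccne1, the cyclin of S phase entry, differed by -0.40 (SE 0.10, adjusted p = 0.189), E2f2 by -0.27 (SE 0.07, adjusted p = 0.188) and E2f3 by -0.25 (SE 0.07, adjusted p = 0.217). On the higher side at an unadjusted p under 0.05, where 9.5% of all rows lay, were 2 inhibitors named for that count, Cdkn1c (p57, 0.57) and Cdkn2d (0.23). Whether the S phase and mitosis lists differ was not tested.

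**Figure D5:**
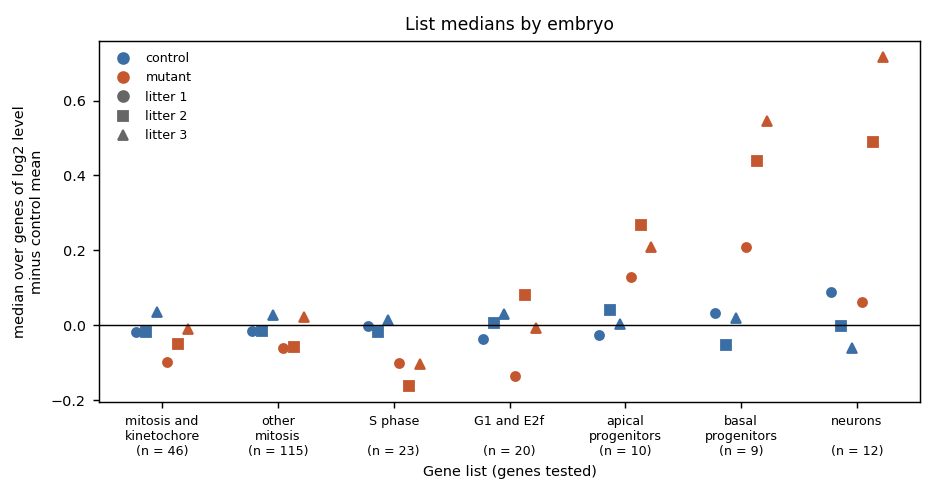
Median over the genes of a list of the log2 level minus the control mean, for each embryo, in 7 lists, with colours giving the group and symbols the litter. The mitosis lists stay within 0.1 of 0 in all embryos, the S phase median is lower in all 3 mutants (-0.102, -0.162 and -0.104), and the basal progenitor median is higher in all 3 mutants than in any control.

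Markers of the cell types in the sample had larger differences between the groups than the mitotic genes. Of the 9 basal progenitor markers 5 had an unadjusted p under 0.05 on the higher side (9.5% of all rows) and 0 on the lower (7.44%), and their median lay between -0.053 and 0.034 in controls and between 0.21 and 0.545 in mutants. Of the 12 neuronal markers 6 did, with a median between -0.061 and 0.089 in controls and at 0.062, 0.489 and 0.716 in mutants 1 to 3. Of the 10 apical progenitor markers 4 did (Fabp7, Slc1a3, Pax6 and Vim), with medians between -0.025 and 0.04 in controls and between 0.13 and 0.268 in mutants. In the same list Hes1 (-0.18, every mutant below every control) and Hes5 (-0.11), effectors of Notch signalling, had negative differences, and 0 genes of these 3 lists passed over all rows. Fabp7 came closest (difference 1.39, SE 0.13, limma, adjusted p = 0.0545). Of the 7 Cajal-Retzius cell markers 6 had positive differences and 1 a negative one (median 0.287). In that list 1 gene had an unadjusted p under 0.05, on the higher side, and 0 passed. The median of the 9 meningeal markers was 1.059, -0.235 and -0.691 in the mutants of litters 1 to 3 and 0.158, 0.016 and -0.362 in their control litter mates, so litter 1 was the highest and litter 3 the lowest in both groups. That of the 7 endothelial markers was 0.118, 0.025 and -0.515 in the mutants and -0.124, 0.12 and 0.031 in the controls. The 7 microglial markers had medians of 0.117, -0.572 and -0.556 against 0.143, 0.054 and -0.191, and the 7 erythroid markers 0.085, 0.018 and -0.946 against -0.021, -0.041 and 0.067. Mutant 1 had the lowest mitotic median of the mutants. It also had their highest meningeal, endothelial, microglial and erythroid medians and their lowest apical progenitor, basal progenitor and neuronal medians. Its array had the lowest share of spots well above background, 65.75%. The part of these cell types, or of the array, in the mitotic differences was not tested.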

How the data were processed

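Total RNA of 6 single embryos was hybridised to 1-colour arrays. Per the file headers, the authors extracted spot intensity with Agilent Feature Extraction 10.7.3.1, and the processed signal used here is background-subtracted. The authors' deposited table, also used, covers 27269 probes with log2 values, a log2 ratio and a p-value, and gives an fdr for only some. Most members, Kif15 and Kif20a among them, have no fdr there, so the fdr values quoted cannot be ranked among the members. None of the sources used here gives the normalization of that table. The submitters' processing notes name limma. Table columns were used by group only.

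Outlier spots were left out, the spots of a probe averaged, and log2 processed signals scaled by the array's 75th percentile. Kept were probes well above background on 3 or more of 6 arrays (26846 of 39429, with 92 incomplete probes left out), and the brightest probe stood for a gene (21064 rows). Names came from RefSeq accessions in GRCm38.p6, or else from the authors' symbols. Members were matched in either symbol column of the authors' table. Probe positions are in mm9, as that table gives them, and exon annotation was not used here.

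Groups were compared with lmFit and eBayes in limma 3.58.1 (R 4.3.3), two-sided, with Benjamini-Hochberg adjustment at 0.05. The fit was run on simulated data with independent values for each row and array. These held no litter or slide effects, so the run could not test how the fit handles them. Summaries and figures were made in Python 3.11.15 with pandas 2.3.3, numpy 2.4.6 and matplotlib 3.10.9. The members, lists and rules were chosen with earlier results of these data known. Genes named are the 16 members of smallest p, the brightest member of each role, and up to 3 genes of smallest p in each other list, while Cdkn1c, Cdkn2d, Vim, Foxm1, Hes1 and Hes5 were named after their values were seen. Other members appear as values that complete a group, or because a count singled them out.

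Titles give litters that pair the samples. Deviations from group means correlated at 0.308, 0.357 and 0.107 within litters 1 to 3, and from -0.41 to 0.109 between litters. Alternatives were normexp (offset 50, on the median signal and median background), quantile normalization, median centring, other filters, averaging the probes of a gene, a block for litter or for slide, variance trend with robust fit, the authors' log2 values, an adjusted p under 0.1, omission of each embryo, and, chosen after seeing the data, slide 2 alone.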

Additional observations from a re-analysis of the deposited data

How the results depend on the processing

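The count of 0 members past the threshold in limma held under every alternative run, with the smallest adjusted p at 0.101 (Kif20a, normexp). Between 0 and 7 members were at an unadjusted p under 0.05. The 7 came with variance trend and robust fit, where 3725 of all rows were under 0.05. The 0 came without control 3 (1912 of all rows), without mutant 1 (4513) and on slide 2 alone (3845). The members' median difference stayed negative throughout, between -0.068 and -0.023 without single embryos, and was -0.125 with median centring, which set the median of all rows at -0.063. Relative to the median of all rows, the members' median was -0.062 in the fit reported and with median centring, -0.021 with quantile normalization, -0.03 with the authors' log2 values, -0.133 with normexp and -0.146 without a filter. The authors' log2 values gave 29 negative members, against 51.6% of all rows. With litter as a replicate block 0 of all rows passed (4179 at an unadjusted p under 0.05, against 3568 without it) and 4 members were at an unadjusted p under 0.05 (Kif15, Kif20a, Kif23 and Spc25), so the pairing changed no call among the members. Over all rows the count of 7 depended on the processing: 131 with normexp, 15 with quantile normalization, 23 with median centring, 0 without a filter (7916 at an unadjusted p under 0.05), 26 with the filter on all 6 arrays, 2 when the probes of a gene were averaged, 0 with slide as a block (4147), 143 with variance trend and robust fit, 34 with the authors' log2 values, 80 at an adjusted p under 0.1, 0 to 1 without single embryos (1912 to 4513) and 0 on slide 2 alone (3845). The cause was not tested. Of 357 recomputed differences of the 21 members named by rule, 15 moved by more than 1 SD and 15, of Ccnb1, Cdc20, Ect2, Mki67 and Prc1, changed sign, none of them called. With 3 embryos in a group, a difference whose interval holds 0 cannot be told from 0 at this precision.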
